A study of Mus musculus with 16 samples.

Results

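De novo lipogenesis is the making of fatty acids from the carbon of sugars, and 9 genes of this pathway were followed here in mouse liver. They were chosen by name among the 17003 genes of the table: *Acly*, *Me1*, *Acaca*, *Fasn*, *Elovl6*, *Scd1*, *Srebf1*, *Thrsp* and *Pnpla3*. All 9 were present and all 9 passed the filter on low values, which kept the 12770 genes that averaged 0.1 FPKM or more over the mice (FPKM, fragments scaled to transcript length and library size). Whole-liver RNA was sequenced from 16 male mice, 8 weeks old, fed normal chow and labelled as fed, with 1 library per mouse. The 8 *Fgl1* LWT mice carried floxed *Fgl1* alleles without CRE. The 8 *Fgl1* LKO mice were littermates in which the albumin promoter drives the CRE recombinase. *Fgl1*, a gene for a liver-secreted protein of the fibrinogen family, is thereby deleted in hepatocytes, and the authors call the deletion specific to these cells. The mice without CRE differed from *Fgl1* LKO mice by the CRE transgene as well as by the deletion, and the effect of each cannot be told apart. Mice are numbered 1 to 8 within each genotype.

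In hepatocytes, cytosolic citrate is split to acetyl-CoA, acetyl-CoA is carboxylated to malonyl-CoA, and fatty acid synthase builds palmitate from them with NADPH as the reductant. Palmitate is then elongated and desaturated, and the products are stored as triglycerides. The transcription factors SREBP-1, made by *Srebf1*, and ChREBP, made by *Mlxipl*, raise the enzymes of the pathway after feeding, when insulin and glucose are high, and the oxysterol receptor LXR raises *Srebf1* itself.

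Promoters are shown for *Fasn* and *Srebf1*, whose relation the results turn on, and for *Pnpla3*, the most variable of the 9 in fold. RefSeq held 11 promoters for 8 of the 9 genes, in GRCm38.p6 coordinates, an older build than the mm39 of the table. Each was searched from 250 bases before the start to 50 bases after it. The 250 bases before the start are printed 5′ to 3′ on the strand of the gene, *Fasn* from chr11:120824548-120824797 on the minus strand, the *Srebf1* start furthest downstream from chr11:60210472-60210721 on the minus strand and *Pnpla3* from chr15:84167566-84167815 on the plus strand. Capitals mark, on either strand, the SRE core TCACCC, the CCAAT box CCAAT and the repeat TGACCGNNAGTAACC of the kind bound by LXR.
Fasn: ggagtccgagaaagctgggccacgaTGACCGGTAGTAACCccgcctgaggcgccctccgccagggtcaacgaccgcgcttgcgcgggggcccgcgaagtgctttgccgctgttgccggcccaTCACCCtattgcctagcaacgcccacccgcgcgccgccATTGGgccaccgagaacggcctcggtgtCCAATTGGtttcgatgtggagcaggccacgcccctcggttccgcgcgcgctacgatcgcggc
Srebf1: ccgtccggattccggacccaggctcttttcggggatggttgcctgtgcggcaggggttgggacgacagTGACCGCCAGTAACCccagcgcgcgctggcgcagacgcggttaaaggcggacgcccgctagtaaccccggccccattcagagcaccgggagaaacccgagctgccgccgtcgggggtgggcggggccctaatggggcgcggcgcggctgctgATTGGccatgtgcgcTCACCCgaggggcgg
Pnpla3: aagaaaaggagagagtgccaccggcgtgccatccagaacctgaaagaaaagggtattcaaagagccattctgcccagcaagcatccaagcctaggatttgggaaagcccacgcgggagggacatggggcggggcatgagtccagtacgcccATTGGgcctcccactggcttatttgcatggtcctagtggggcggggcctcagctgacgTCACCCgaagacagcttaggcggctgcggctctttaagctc
The repeat began 225 bases before the start in *Fasn* and 182 bases before it in *Srebf1*. Its letters were set after these sequences were read, with the positions that differ between them given as N, so that its finding in both is no test. In all of the RefSeq promoters, 3 of 32851 promoters held it, which is 0.00913%, and the third was that of *Abca1*, a cholesterol exporter. The SRE core was found in 4 of the 11 promoters (1 each of *Fasn*, *Me1*, *Pnpla3* and *Srebf1*) and in 16.2% of all promoters. It began 128 bases before the start in *Fasn*, 41 in *Pnpla3* and 15 in *Srebf1*. The CCAAT box was found in 7 of the 11 promoters, of 6 genes, and in 37.4% of all promoters. In *Acly* it was found only after the start, by 37 bases. In *Fasn* it stood 90, 62 and 59 bases before the start. The last pair overlap, 1 on each strand. The GC box GGGCGG, which is not in capitals, was found in 5 of the 11 promoters, in 35.7% of all promoters and in 60.0% of the promoters of genes kept. The longer SRE TCACNCCAC and the E-box CACGTG were in none of these windows, which says only that these letters are not there.

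The targeted gene had 158 to 1331 FPKM in the *Fgl1* LWT livers and 13.2 to 90.0 FPKM in the *Fgl1* LKO livers, and the genotypes did not overlap (log2 fold change -3.11, SE 0.49, limma adjusted p = 0.0725, exact permutation p = 0.000155, the smallest these samples can give). The FPKM values of a library summed to 673153 to 786188, and the number of reads behind them is not given in the sources used here. Hepatocyte markers were high in each liver (*Alb* 31146 to 61191 FPKM). Of 5 adipocyte markers in the table, the defining *Adipoq* reached at most 0.06 FPKM, *Plin1* was listed at 0 in all mice and *Cfd* reached at most 0.88 FPKM. The other two, *Fabp4*, which macrophages and endothelium also express, and *Adrb3*, had 3.95 to 45.1 FPKM and 0.86 to 5.82 FPKM. In bulk liver, a change in the share of hepatocytes and a change in RNA per hepatocyte cannot be told apart.

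The 9 genes spanned a wide range of levels. Over the 16 mice, *Scd1* had the highest mean, at 1784 ± 1091 FPKM (SD, n = 16), and was above the next gene, *Thrsp* (294 ± 311 FPKM), in 16 of 16 mice. *Acly* (114 ± 83.8 FPKM) was below *Thrsp* in 15 mice and above *Fasn* in 15. *Fasn* and *Me1* had nearly the same mean, 85.4 and 84.9 FPKM, and *Fasn* was the higher in 6 mice, so that these neighbours were not ordered beyond their spread. *Srebf1* had 53.4 ± 25.6 FPKM and lay below *Me1* in 10 of 16 mice. *Acaca* (19.1 ± 8.23 FPKM) and *Elovl6* (18.7 ± 15.3 FPKM) were not ordered beyond their spread either, and *Pnpla3* was last in each mouse, at 1.84 ± 2.65 FPKM.

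The question put to these libraries was whether the loss of hepatocyte *Fgl1* changed the liver transcriptome at 8 weeks, and for the lipogenesis genes no difference passed the test. With limma on log2(FPKM + 1) and adjustment over 12770 genes, 0 of 9 had an adjusted p under 0.05, against 0% of all genes, and 0 of 9 had an unadjusted p under 0.05, against 7.01% of all genes. By the same limma fit, the adjusted p of the 9 genes lay between 0.712 and 0.981. Of the 9, 8 had a log2 fold change above 0 in *Fgl1* LKO mice, against 55.8% of all genes, and their median was 0.33 against 0.01 over all genes. These genes moved together from liver to liver, so that their signs are not 8 separate observations. Without *Fgl1* LKO mouse 4, 6 of 9 were above 0, and the log2 fold change of *Fasn* was 0.13 in place of 0.40. By their numbers in the labels, which are not the replicate numbers, the mice were put here into 4 series (36 to 38, 48 to 55, 60 to 64 and 69 to 72), and only *Fgl1* LWT mice are in the series 36 to 38. With the series as a term in the fit, 5 of 9 were above 0, and *Scd1*, *Thrsp* and *Pnpla3* were at -0.12, -0.43 and -0.51.

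Acetyl-CoA and NADPH for the pathway come in part from *Acly*, ATP citrate lyase, and *Me1*, cytosolic malic enzyme. *Acly* lies on chromosome 11 from 100367165 to 100440756 (GRCm39, minus strand). It had 37.9, 76.9 and 192 FPKM as the lowest, median and highest value of the *Fgl1* LWT mice, and 53.0, 80.7 and 322 FPKM in the *Fgl1* LKO mice. The genotypes overlapped over most of their range, and both had 2 livers far above the rest. The mean was 95.3 ± 55.8 FPKM in *Fgl1* LWT and 134 ± 105 FPKM in *Fgl1* LKO mice (SD, n = 8 each), with a log2 fold change of 0.35 (SE 0.40, limma adjusted p = 0.834). *Me1* lies on chromosome 9 from 86462646 to 86578104 (minus strand). Its lowest, median and highest values were 48.0, 59.5 and 128 FPKM in *Fgl1* LWT mice and 39.9, 68.2 and 255 FPKM in *Fgl1* LKO mice. The *Fgl1* LKO livers held both the lowest and the highest value of *Me1* (log2 fold change 0.36, limma adjusted p = 0.790).

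Malonyl-CoA and palmitate are made by *Acaca*, acetyl-CoA carboxylase 1, and *Fasn*, fatty acid synthase. *Acaca* (chromosome 11 from 84020476 to 84292477, plus strand) was the least variable of the 9, with 8.51, 15.6 and 30.2 FPKM as lowest, median and highest value in *Fgl1* LWT mice and 11.6, 16.8 and 36.0 FPKM in *Fgl1* LKO mice. Its log2 fold change was 0.22 (SE 0.25, limma adjusted p = 0.839). *Fasn* lies on chromosome 11 from 120696672 to 120715995 (minus strand). Its lowest, median and highest values were 17.6, 54.3 and 159 FPKM in *Fgl1* LWT mice and 40.9, 54.8 and 292 FPKM in *Fgl1* LKO mice. The medians of *Fasn* were thus almost the same, and the means, 70.3 ± 46.2 and 100.4 ± 88.3 FPKM (SD, n = 8 each), differed through *Fgl1* LKO mice 3 and 4, at 168 and 292 FPKM. The log2 fold change of *Fasn* was 0.40, with a 95% interval from -0.52 to 1.32 (limma adjusted p = 0.830, exact permutation p = 0.445).

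Palmitate is lengthened by *Elovl6*, an elongase of saturated fatty acids, and its products are desaturated by *Scd1*, the main stearoyl-CoA desaturase of liver. *Elovl6* (chromosome 3 from 129326004 to 129432144, plus strand) had 7.12, 11.3 and 28.8 FPKM as lowest, median and highest value in *Fgl1* LWT mice and 6.52, 14.8 and 67.2 FPKM in *Fgl1* LKO mice. Here too 1 liver, that of *Fgl1* LKO mouse 4, stood far above the others (log2 fold change 0.42, SE 0.38, limma adjusted p = 0.796). *Scd1* (chromosome 19 from 44382894 to 44399154, minus strand) had 879.7, 1286 and 2624 FPKM in *Fgl1* LWT mice and 338, 1621 and 4259 FPKM in *Fgl1* LKO mice. The lowest *Scd1* value was that of *Fgl1* LKO mouse 6, and no *Fgl1* LWT liver came near it. The log2 fold change of *Scd1* was 0.24 (SE 0.41, limma adjusted p = 0.902).

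The 2 genes of transcriptional control had log2 fold changes of opposite sign, and neither passed. The log2 ratio of *Srebf1* to *Thrsp* did not separate the genotypes (exact permutation p = 0.131). *Thrsp*, which makes Spot 14, a nuclear protein long used as a marker of lipogenic induction, lies on chromosome 7 from 97062139 to 97066937 (minus strand). Its lowest, median and highest values were 64.6, 158 and 758 FPKM in *Fgl1* LWT mice and 58.8, 185 and 1159.8 FPKM in *Fgl1* LKO mice (log2 fold change 0.33, SE 0.58, limma adjusted p = 0.906). The sign of this value was not stable, since it was -0.013 without *Fgl1* LKO mouse 4 and -0.25 without mice 36 to 38. *Srebf1* lies on chromosome 11 from 60089913 to 60113407 (minus strand). Its lowest, median and highest values were 25.4, 61.5 and 82.8 FPKM in *Fgl1* LWT mice and 18.9, 41.4 and 114 FPKM in *Fgl1* LKO mice. Only 1 of the 8 *Fgl1* LKO livers, that of mouse 4, was above the *Fgl1* LWT median of *Srebf1*. *Srebf1* was the single gene of the 9 with a negative log2 fold change, -0.55 (95% interval -1.21 to 0.11, limma unadjusted p = 0.0975, adjusted p = 0.712, exact permutation p = 0.140). Without *Fgl1* LKO mouse 4 the value was -0.77 (limma unadjusted p = 0.0102, adjusted p = 0.618). Without mice 36 to 38 it was -0.46 (limma unadjusted p = 0.263), and with the series as a term -0.57 (limma unadjusted p = 0.111). The gene-level table does not separate the *Srebf1* transcripts that begin at different starts.

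*Pnpla3*, a lipid droplet protein and a target of SREBP-1, lies on chromosome 15 from 84051943 to 84073723 (plus strand). Its lowest, median and highest values were 0.15, 0.725 and 7.48 FPKM in *Fgl1* LWT mice and 0.14, 0.78 and 9.04 FPKM in *Fgl1* LKO mice. The highest *Pnpla3* value was 64.6 times the lowest, the widest ratio of the 9 genes. The lowest values lay near the filter limit of 0.1 FPKM, so that this ratio depends strongly on them. On log2(FPKM + 1) its SD within genotypes was 1.01, below the 1.30 of *Thrsp*. The genotypes of *Pnpla3* overlapped almost wholly (log2 fold change 0.05, SE 0.45, limma adjusted p = 0.981, and -0.26 without *Fgl1* LKO mouse 4).

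**Figure D1:**
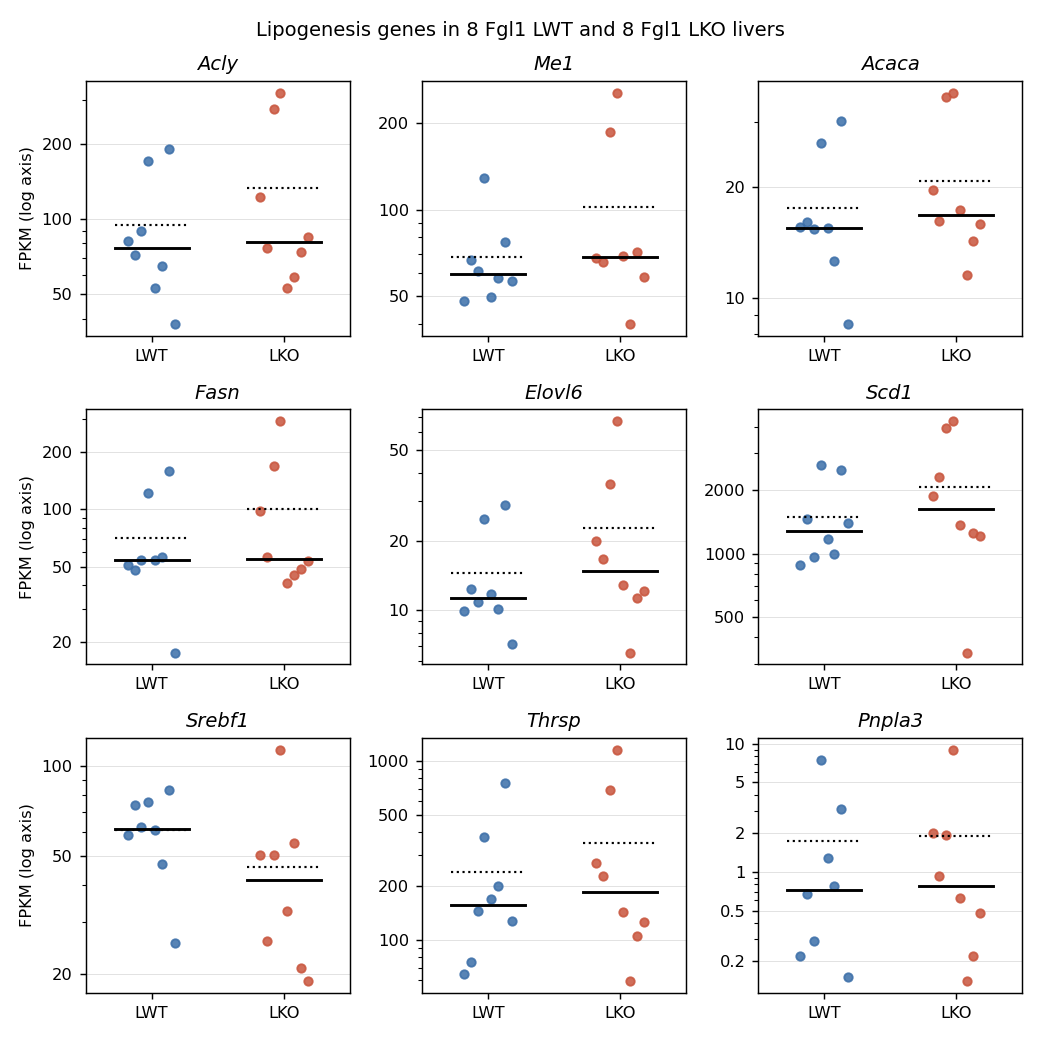
FPKM (log axis) of each of the 9 genes in 8 *Fgl1* LWT (blue) and 8 *Fgl1* LKO livers (red), 1 point a mouse in order of mouse number, with solid lines at the medians and dotted lines at the means. The genotypes overlap in each gene, with 5 or 6 of the 8 *Fgl1* LKO livers inside the *Fgl1* LWT range, and 7 of 8 *Fgl1* LKO livers lie below the *Fgl1* LWT median of *Srebf1*.

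Variation between mice of one genotype was large for each of the 9 genes. The SD of log2(FPKM + 1) within genotypes lay between 0.55 for *Acaca* and 1.30 for *Thrsp*, and the median of the 9 was 0.89 against 0.17 over all genes kept. Among all genes kept, these SDs stood at percentiles 97.4 to 99.8. Because of this spread the 95% intervals were wide. For *Thrsp* the interval ran from -0.89 to 1.55 and for *Acaca*, the narrowest, from -0.31 to 0.74, and differences of any size within these intervals are compatible with the data.

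The variation was shared. *Fgl1* LKO mouse 4 had the highest value of all 9 genes. The same 4 livers, those of *Fgl1* LKO mice 4 and 3 and of *Fgl1* LWT mice 7 and 4, held the 4 highest values of 7 genes, *Acly*, *Me1*, *Acaca*, *Fasn*, *Elovl6*, *Scd1* and *Thrsp*, and each genotype gave 2 of them. At the other end, *Fgl1* LWT mouse 8 had the lowest value of 3 genes and *Fgl1* LKO mouse 6 that of 5 genes. The mean z-score of the 9 genes was 2.06 in *Fgl1* LKO mouse 4, 1.29 in *Fgl1* LKO mouse 3, 1.03 in each of *Fgl1* LWT mice 4 and 7, and -1.08 and -1.04 in *Fgl1* LWT mouse 8 and *Fgl1* LKO mouse 6.

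**Figure D2:**
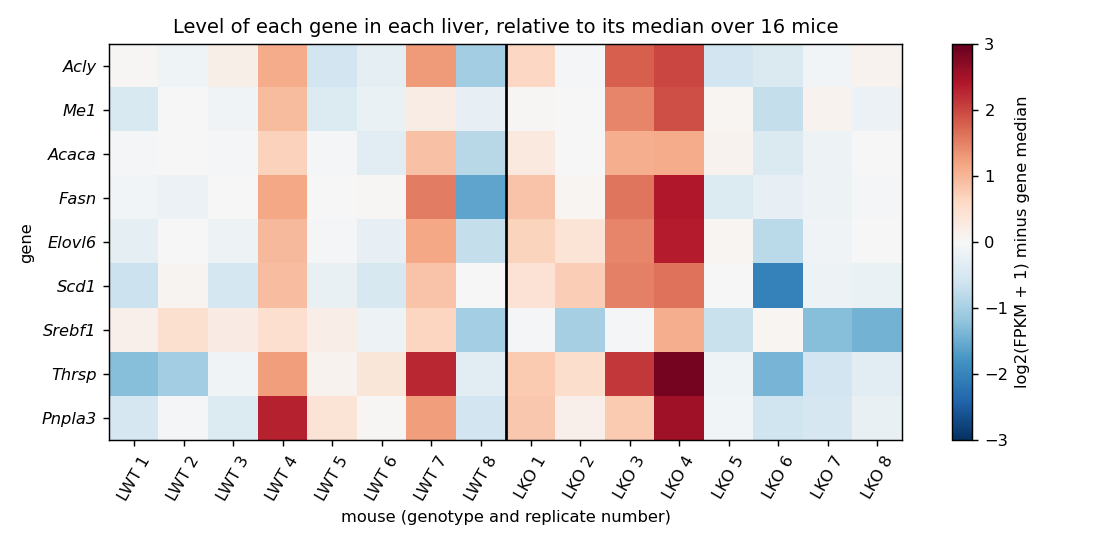
Heat map of log2(FPKM + 1) of each gene (rows) in each liver (columns, *Fgl1* LWT left and *Fgl1* LKO right of the line), minus the median of the gene over 16 mice. Red columns run through nearly all genes in *Fgl1* LWT mice 4 and 7 and *Fgl1* LKO mice 3 and 4, and the *Srebf1* row breaks the pattern in *Fgl1* LKO mouse 3.

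The 36 pairs of the 9 genes had a median Pearson r of 0.84 over the 16 mice, on log2(FPKM + 1). Among the 28 pairs without *Srebf1*, r lay between 0.70 and 0.96 with a median of 0.85 (median Spearman rho 0.77), and all 28 had an adjusted p under 0.05 by permutation, for r and for rho. Adjustment was over the 36 pairs. *Acly* and *Fasn* were the closest pair by r (r = 0.96, rho = 0.82, permutation p of r = 1e-05, the smallest that 100000 permutations can give, adjusted p = 3e-05). By rho the closest were *Acaca* and *Elovl6* (rho = 0.96, r = 0.95). For comparison, the median r of *Fasn* was 0.86 with the other 8 genes and 0.12 with all other genes kept. Without the 2 mice farthest from the median of the gene on the x axis, r of the 28 pairs stayed between 0.47 and 0.94. The points were unevenly spread, since *Fasn* was between 40.9 and 56.4 FPKM in 10 livers, 17.6 FPKM in 1 and 98.5 to 292 FPKM in 5, so that the few high livers weigh more in r than in rho. Within genotypes, the median r of the 28 pairs was 0.79 in the 8 *Fgl1* LWT mice and 0.93 in the 8 *Fgl1* LKO mice, and the median rho was 0.64 and 0.82. In *Fgl1* LWT mice it leaned on a few livers. Without the 2 farthest from the median of 1 gene of the pair, r there lay between -0.62 and 0.93 with a median of 0.54, and it was below 0 in 6 of 28 pairs, 4 of them with *Scd1*. In *Fgl1* LKO mice it lay between 0.27 and 0.99. On deviations from the means of the 4 series of mouse numbers, the median r of the 36 pairs was 0.83.

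Over the 16 mice, the 8 pairs with *Srebf1* were looser. Their r lay between 0.24 with *Scd1* and 0.63 with *Fasn*, with a median of 0.53, and 5 of 8 had an adjusted p under 0.05 for r and 1 of 8 for rho. Within genotypes, *Srebf1* and *Fasn* had r = 0.86 in *Fgl1* LWT mice (exact permutation p = 0.00796) and r = 0.77 in *Fgl1* LKO mice (exact permutation p = 0.0237). By rho the values were 0.60 and 0.38 (exact permutation p = 0.132 and 0.360). Without the 2 farthest mice r was 0.44 and 0.49, so that within genotypes r of this pair leans on those mice. By rho in *Fgl1* LWT mice, the 8 pairs lay between 0.50 with *Thrsp* and 0.95 with *Elovl6*, beside a median of 0.64 for the 28 other pairs. In *Fgl1* LKO mice they lay between 0.26 with *Me1* and 0.45 with *Acaca* and *Pnpla3*, beside 0.82. By rank the pairs were thus looser in *Fgl1* LKO mice, and the *Fgl1* LWT values did not set them apart.

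**Figure D3:**
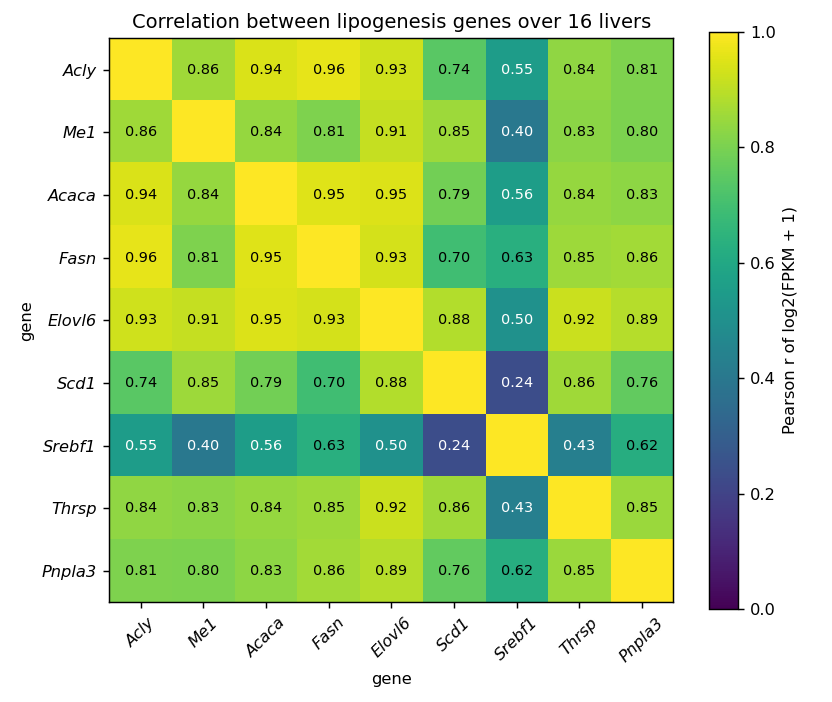
Pearson r of log2(FPKM + 1) over 16 livers for each pair of the 9 genes. The row and column of *Srebf1* hold the lowest values, 0.24 to 0.63, and the other pairs lie between 0.70 and 0.96.

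The level of *Srebf1* relative to the other 8 genes was compared next, a comparison chosen after the values were seen. The log2 ratio of *Srebf1* to *Fasn*, each as FPKM + 1, was -0.03 ± 0.55 in *Fgl1* LWT mice and -0.97 ± 0.65 in *Fgl1* LKO mice (SD, n = 8 each). The lowest, median and highest ratio was -0.93, 0.18 and 0.61 in *Fgl1* LWT mice and -1.73, -1.13 and 0.28 in *Fgl1* LKO mice. In 7 of 8 *Fgl1* LKO livers the ratio was under the *Fgl1* LWT median, the exception being mouse 6. The difference was -0.95 (exact permutation p = 0.0106, two-sided). With *Elovl6* as the partner it was -0.97 (exact permutation p = 0.0118). Here 7 *Fgl1* LKO livers, at 0.47 to 1.29, were below the lowest *Fgl1* LWT value of 1.49, and mouse 6, at 2.90, was above the highest, 2.49.

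For the 8 ratios of *Srebf1* to another of the genes, the differences lay between -0.61 and -0.97, and 5 of 8 had an exact p under 0.05, against 4.46% of the ratios of *Srebf1* to any other gene kept. Adjusted over all 12769 such ratios, the p of each of the 8 was 0.234, so that none passed. The 8 ratios share *Srebf1*, and the other genes moved together from liver to liver, so that the ratios are not 8 separate observations. Their common sign was given beforehand, since only *Srebf1* had a negative log2 fold change. Among the 28 pairs of the other genes, 0 had an exact permutation p under 0.05 for their ratio, with 0.0993 as the smallest p and 0.36 as the largest difference in size. Of the ratios of *Fasn* to any other gene kept, 0.0627% had an exact p under 0.05. The ratio to *Fasn* also depended on mice 36 to 38. Without them the difference was -0.73 (exact permutation p = 0.0699), and within the remaining series it was -0.69 (exact permutation p = 0.0833, over 240 arrangements).

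**Figure D4:**
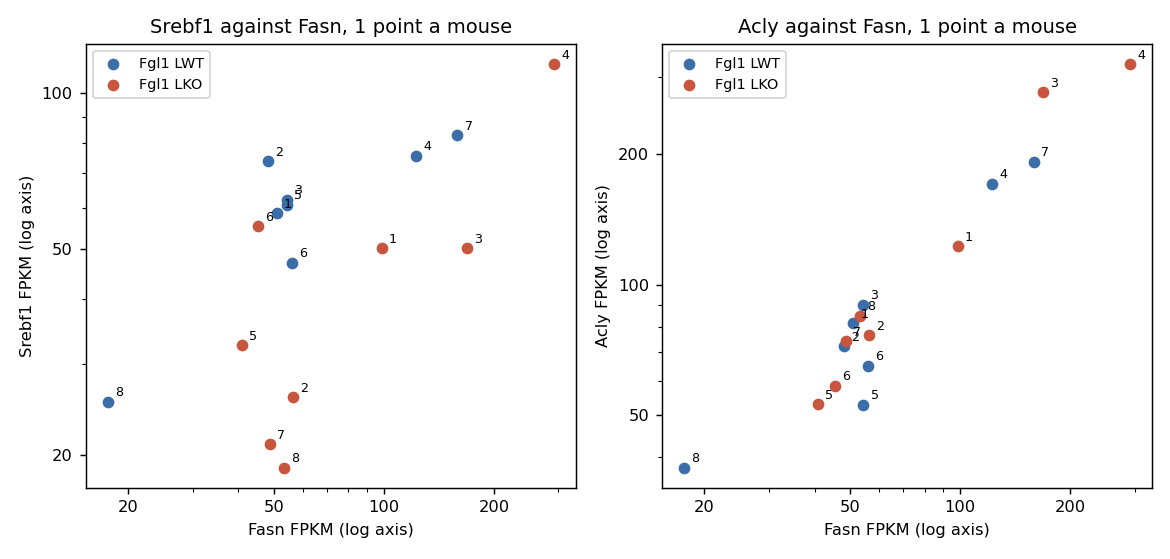
*Srebf1* (left) and *Acly* (right) against *Fasn* in FPKM, on log axes, 1 point a mouse with its number, *Fgl1* LWT in blue and *Fgl1* LKO in red. *Acly* and *Fasn* follow one line in both genotypes (r = 0.96), whereas at a like level of *Fasn* most *Fgl1* LKO livers have less *Srebf1* than the *Fgl1* LWT livers.

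The rest of the pathway was covered by a list of 47 genes in 8 groups. None had an adjusted p under 0.05. An unadjusted p under 0.05 was found for 1 of 47, against 7.01% of all genes. It was *Mogat1*, a monoacylglycerol acyltransferase at 0.094 ± 0.076 FPKM in *Fgl1* LWT and 0.245 ± 0.132 FPKM in *Fgl1* LKO mice (SD, n = 8 each), close to the lower limit of the table. The log2 fold change was above 0 in 32 and below 0 in 15, with a median of 0.06.

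In the supply of citrate, acetyl-CoA and NADPH, 0 of 5 genes passed. *Idh1*, cytosolic isocitrate dehydrogenase, had the highest mean, with 171 ± 22.3 FPKM in *Fgl1* LWT and 167 ± 32.5 FPKM in *Fgl1* LKO mice. *Acss2*, which makes acetyl-CoA from acetate, had the largest log2 fold change, 0.38, which was 0.14 with the series as a term. In the control of malonyl-CoA, 0 of 3 passed, *Acacb*, acetyl-CoA carboxylase 2, had a log2 fold change of 0.65 (SE 0.42, limma adjusted p = 0.729) that was 0.17 without mice 36 to 38 and 0.034 with the series as a term, and *Mlycd*, malonyl-CoA decarboxylase, one of -0.06. Among the other elongases and desaturases 0 of 9 passed, with 0.34 for *Elovl5* and 0.14 for *Elovl3*. In triglyceride synthesis 0 of 7 passed, with 0.54 for *Lpin1*, a phosphatidate phosphatase (SE 0.47), and -0.05 for *Dgat2*, which makes the triglyceride itself.

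Among the genes that process SREBP, 0 of 5 passed. *Insig1*, which holds SREBP in the endoplasmic reticulum and is itself an SREBP target, had 166.5 ± 58.9 FPKM in *Fgl1* LWT and 138 ± 54.9 FPKM in *Fgl1* LKO mice (log2 fold change -0.29, limma adjusted p = 0.806). Of 8 other genes of transcriptional control 0 passed. *Mlxipl* had 103 ± 14.5 FPKM in *Fgl1* LWT and 95.5 ± 14.7 FPKM in *Fgl1* LKO mice (log2 fold change -0.11), and *Pparg* had a log2 fold change of 0.15. In sugar phosphorylation and glycolysis 0 of 6 passed, with 0.21 for *Tkfc*, triokinase. Of 4 genes of the insulin signal 0 passed, with 0.23 for *Irs2* and 0.07 for *Akt2*.

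**Figure D5:**
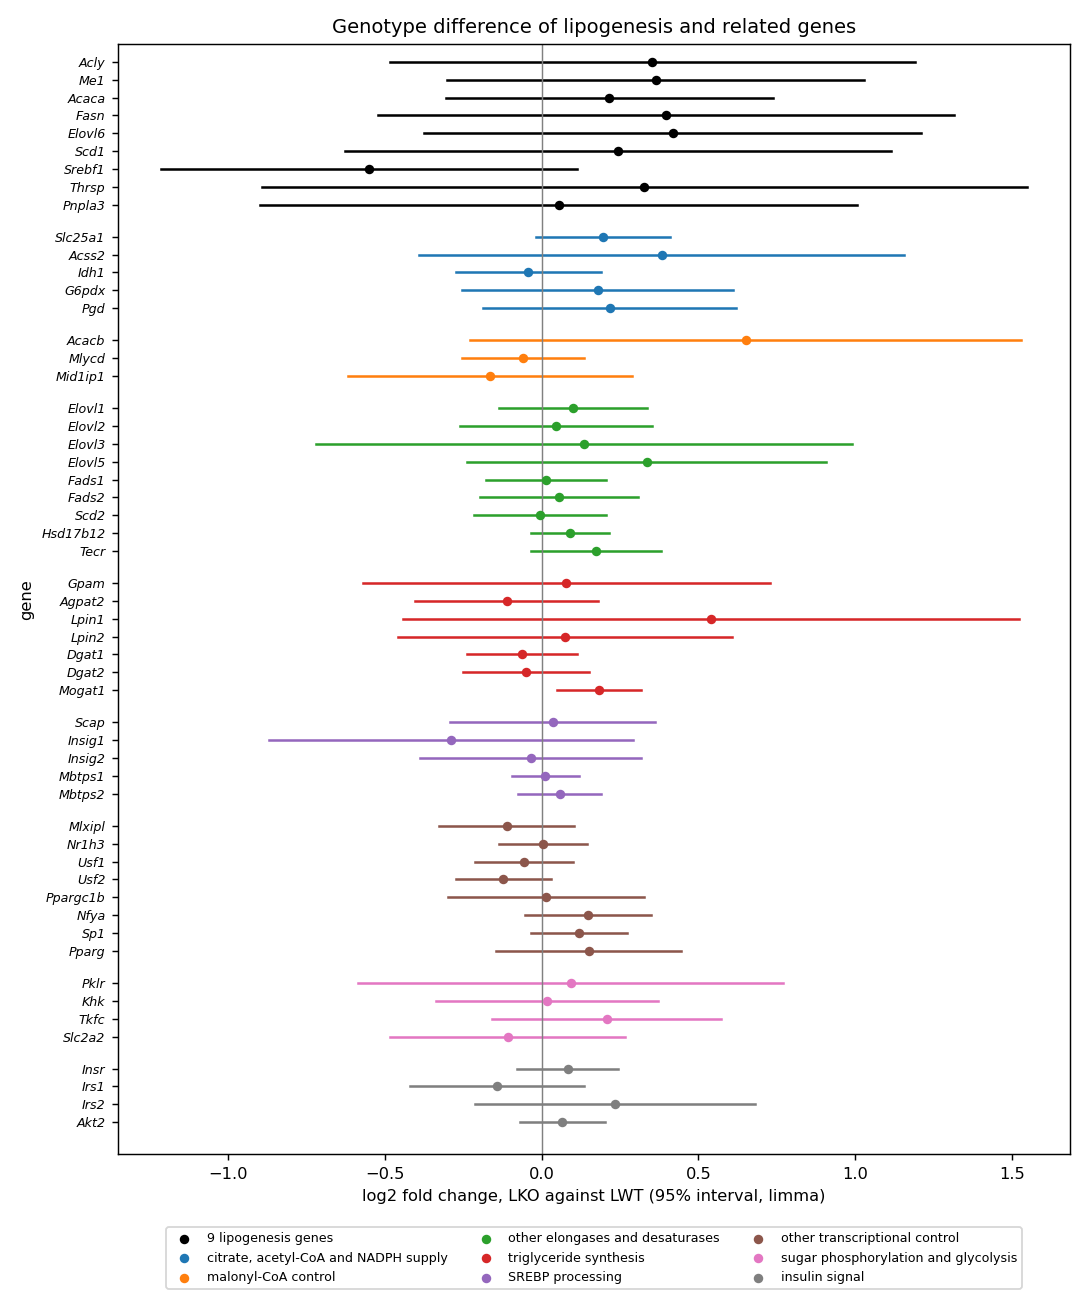
Log2 fold change of *Fgl1* LKO against *Fgl1* LWT livers (point) with its 95% interval from limma (line) for the 9 lipogenesis genes (black) and 45 of the related genes by group (colours). The intervals include 0 for each gene plotted but *Mogat1*, and *Srebf1* and *Insig1* stand lowest.

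Other genes followed the same variation between livers. Of 45 genes of the list that averaged 1 FPKM or more, 9 had r of at least 0.8 with the mean z-score of the 9 genes, against 50 of 10029 genes searched, or 0.499%. These correlations are over 16 mice and are given as a description. The 5 highest were *Gpam*, the first enzyme of glycerolipid synthesis (r = 0.97), *Chrna4*, a nicotinic receptor subunit (0.96), *Pklr*, liver pyruvate kinase (0.94), *Tmem135* (0.93) and *Elovl5* (0.93). The 5 lowest were *2810459M11Rik* (-0.81), *Ccdc130* (-0.79), *Sephs1* (-0.79), *Pla2g12a* (-0.77) and *Scarb1*, the receptor for high-density lipoprotein (-0.73). *Chrna4* averaged 3.75 FPKM.

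Further genes were paired with each of the 9, in 72 pairs adjusted together, and 7 of these genes are described. *Gpam* correlated with all 9 (r = 0.72 to 0.96, 9 of 9 with an adjusted permutation p under 0.05) and *Pklr* with 8 of 9 (r = 0.51 to 0.92). Within *Fgl1* LWT mice, *Pklr* passed by r with *Me1* and *Scd1* only. Without the 2 farthest mice, its r there lay between -0.355 with *Acly* and 0.54 with *Scd1*, so that in this genotype it leaned on few livers. For *Mlxipl*, 6 of 9 passed (r = 0.49 to 0.74). *Srebf1* was the only one of the 9 that passed by r with *Insig1* (r = 0.81, rho = 0.84, with 2 of 9 passing by rho) and with *Cpt1a*, the gate of mitochondrial fatty acid oxidation (r = -0.67, rho = -0.60). With *Cpt1a*, r was -0.77 in *Fgl1* LKO mice (-0.24 without the 2 farthest mice) and -0.17 in *Fgl1* LWT mice (0.82 without the 2 farthest mice). By rho the values were -0.71 and -0.05, so that the pooled relation was not seen within *Fgl1* LWT mice. Neither the acute-phase gene *Saa1* (r = -0.38 to 0.06) nor *Alb* (r = -0.20 to 0.31) passed with any of the 9, although *Saa1* itself ran from 63.8 to 16268 FPKM over the mice. Within genotypes these values parted. *Saa1* had r of -0.15 to 0.59 in *Fgl1* LWT and -0.75 to -0.31 in *Fgl1* LKO mice, and *Alb* had r of -0.73 to -0.01 and 0.42 to 0.69. None of these had an adjusted p under 0.05 by exact permutation, and the difference between genotypes was not tested.

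Summed markers of other liver cells were set beside the mean z-score as well. Its r over 16 mice was 0.37 for 5 markers of Kupffer cells (sums of 57.9 to 119 FPKM in *Fgl1* LWT and 71.2 to 151 in *Fgl1* LKO mice), 0.38 for 5 of sinusoidal endothelium, 0.50 for 5 of stellate cells and -0.52 for 4 of cholangiocytes (23.1 to 55.0 and 27.9 to 260.7 FPKM). The cholangiocyte sum was mostly *Spp1* (mean 58.1 FPKM, r = -0.53), whereas *Krt19*, *Krt7* and *Epcam* had r of -0.10, 0.19 and -0.37. For 6 hepatocyte markers it was 0.08 and for 5 adipocyte markers -0.12. The part of these cells in the variation of the lipogenesis genes was not tested.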

How the data were processed

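A liver library per mouse (8 mice a genotype) was sequenced as paired ends on a DNBSEQ platform. The authors filtered the reads, aligned them to mm39 with HISAT and to reference genes with Bowtie2, and deposited 1 table of FPKM values with 2 decimals and decimal commas. Versions, annotation and read counts are not given in the sources used here, so no counting error can be stated. Genes that averaged 0.1 FPKM or more were kept (12770 of 17003), and log2(FPKM + 1) was compared with limma 3.58.1 in R 4.3.3 (eBayes with trend, two-sided, Benjamini-Hochberg over all genes kept, threshold 0.05). Fold changes are on this scale and understate those of low genes. Exact permutation tests used all 12870 splits of the 16 mice (smallest two-sided p 0.000155). Correlations used 100000 permutations over 16 mice and all permutations within a genotype. Python 3.11.15 with numpy 2.4.6, scipy 1.17.1, pandas 2.3.3 and matplotlib 3.10.9 was used, and the tests were checked on simulated data. No 2 libraries were identical. Nothing in the labels pairs the mice across genotypes, and same-numbered mice did not deviate together (r above 0.1 in 3 of 8 pairs). Positions are from GRCm39 with GENCODE vM39, and promoters from the RefSeq table.

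The 9 genes and all lists were chosen with earlier results of these data known. Named genes besides the 9 are those past the threshold, the highest and the most different gene of each group, the 5 most and least correlated genes and *Fgl1*. *Mogat1*, *Abca1*, *Cyp4a10*, *Cyp4a14* and the ratios of *Srebf1* were chosen after their values were seen. Values of some listed genes are not reported here, though the counts over their lists include them. Alternatives were other pseudocounts, filters, scalings and weights, a block for the replicate number, the series of mouse numbers, an acute-phase covariate and each mouse left out.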

Additional observations from a re-analysis of the deposited data

Results flagged for a closer look

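Each genotype of 38 named genes (76 groups of 8 mice) was searched for a liver set apart from the rest, by Dixon's ratio of the gap to the whole range on the log2 scale against its 95% critical value, which chance passes in about 1 of 20 groups, or about 3.8 of 76. Of 4 found, 1 concerned the 9 lipogenesis genes. *Pnpla3* in *Fgl1* LKO mouse 4 was 9.04 FPKM against 2.02 FPKM in the next liver (ratio 0.552), the liver that was also the highest for the other 8 genes. *Elovl3* in *Fgl1* LWT mouse 7 was 40.2 FPKM, with 169.8 FPKM in the next lowest (0.572), although that liver was among the 4 highest for all 9 lipogenesis genes. *Akt2* in *Fgl1* LKO mouse 8 was 31.3 FPKM against 27.0 FPKM (0.647). *Fgf21* in *Fgl1* LWT mouse 6 was 7.35 FPKM against 1.70 FPKM (0.597).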

How the results depend on the processing

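In all 30 alternatives of the limma fit, 0 of the 9 lipogenesis genes and 0 of the 47 listed genes had an adjusted p under 0.05, and the lowest adjusted p of the 9 genes was 0.545. An unadjusted p under 0.05 was found in 3 of these fits, each time for *Srebf1*, whose value stayed negative throughout (-0.77 to -0.41 with each mouse left out). With the replicate block the value for *Srebf1* was -0.55 (limma adjusted p = 0.672, with an unadjusted p under 0.05), and since nothing in the labels pairs the mice this is no paired result. Over all genes, 0 had an adjusted p under 0.05, and 1, *Fgl1*, in each of 6 alternatives: equal sums, the replicate block, the run (series of mouse numbers) as a term, the same with mouse 55 a run of its own, without the run 36 to 38, and the acute-phase covariate. With an unadjusted p under 0.05 there were 895. The exact rank-sum test gave 0 genes. Directions without a call turned in several fits, and the cause was not tested. With the run as a term, values were -0.12 for *Scd1*, -0.43 for *Thrsp*, -0.51 for *Pnpla3*, -0.083 for *Elovl3*, -0.14 for *Hp* and -0.64 for *Saa1*. With mouse 55 a run of its own they were -0.20, -0.55, -0.50, -0.026, -0.070 and -0.33, and *Acacb* was -0.035. Without the run 36 to 38, they were -0.25 for *Thrsp*, -0.32 for *Pnpla3*, -0.25 for *Hp*, -0.96 for *Saa1*, 0.031 for *Idh1* and 0.013 for *Dgat2*. The number of the 9 genes above 0 was 5 with the run as a term and 6 to 8 with each mouse left out. With each mouse left out, the values of genes that turned lay between -0.26 and 0.34 for *Pnpla3*, -0.013 and 0.63 for *Thrsp*, -0.24 and 0.28 for *Elovl3*, -0.022 and 0.33 for *Hp*, -0.10 and 0.0078 for *Idh1*, and -0.10 and 0.0054 for *Mlycd*. The lowest values of *Pnpla3* and *Thrsp* were those without *Fgl1* LKO mouse 4. The median r of the 36 pairs, 0.84 with a jackknife SE of 0.07, was 0.74 as Spearman rho and 0.92 within *Fgl1* LKO mice, and 0.78 to 0.86 with each mouse left out. The difference in the *Srebf1* to *Fasn* ratio lay between -1.13 and -0.84 with each mouse left out (exact permutation p = 0.00202 to 0.0202). It was -0.73 (exact p = 0.0699) without the run 36 to 38. That run holds *Fgl1* LWT mice only, so its mice and genotype cannot be told apart. Depth is unknown, and 8 mice a genotype limit the precision.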

Other observations

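Sterol synthesis, the other pathway driven by SREBP factors, was described by 8 genes that were not among the 9. All 8 had a log2 fold change above 0 in *Fgl1* LKO mice, against 55.8% of all genes, with a median of 0.59. An unadjusted limma p under 0.05 was found for 4 of 8, against 7.01% of all genes, and 0 of 8 had an adjusted p under 0.05. How far the 8 moved together was not computed, so that they are not taken as 8 separate observations. *Idi1*, isopentenyl diphosphate isomerase, had 22.4, 72.8 and 154.7 FPKM as lowest, median and highest value in *Fgl1* LWT mice and 65.5, 127 and 204 FPKM in *Fgl1* LKO mice (log2 fold change 0.81, SE 0.34, limma adjusted p = 0.696). *Fdps*, farnesyl diphosphate synthase, had 269 ± 121 FPKM in *Fgl1* LWT and 380 ± 120 FPKM in *Fgl1* LKO mice (SD, n = 8 each, log2 fold change 0.57, limma adjusted p = 0.696). With weights on the libraries, the unadjusted limma p was 0.0803 for *Idi1* and 0.0786 for *Fdps*. With the series of mouse numbers as a term it was 0.00531 and 0.0831. *Idi1* had r = -0.06 with the mean z-score of the 9 lipogenesis genes over the 16 mice, and *Fdps* had 0.55. All 9 genes of fasting oxidation were above 0 as well, against 55.8% of all genes, with 0 of 9 at an unadjusted p under 0.05. How far these moved together was not computed either. On mean FPKM, *Cyp4a10* (87.0 in *Fgl1* LWT and 40.5 in *Fgl1* LKO mice) and *Cyp4a14* (33.1 and 15.8) were lower in *Fgl1* LKO mice. *Fgf21*, a hormone of fasting, had a log2 fold change of 0.55. Of 8 acute-phase genes, 6 were above 0, with 0.88 for *Saa1* (SE 1.31) and 0.12 for *Hp*, and 0 of 8 had an unadjusted p under 0.05. The mean FPKM of *Saa1* went the other way, 3997 in *Fgl1* LWT and 2431 in *Fgl1* LKO mice.

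The RNA of *Fgl1* left in the *Fgl1* LKO livers was set beside the 9 genes. Within the 8 *Fgl1* LKO mice, r on log2(FPKM + 1) lay between -0.58 and -0.90, and 8 of 9 had an adjusted p under 0.05 by exact permutation, but by Spearman rho 0 of 9 did (lowest adjusted p = 0.198). *Fgl1* LKO mice 3 and 4 had the least *Fgl1*, 13.2 and 15.4 FPKM, and the most *Fasn*. Without the 2 mice farthest from the median of *Fgl1*, r lay between -0.39 and 0.09, so that the relation rests on those livers. Within *Fgl1* LWT mice, r lay between -0.09 and 0.61 and 0 of 9 had an adjusted p under 0.05 by exact permutation. *Fgl1* LKO mice 3 and 4 also had low *Saa1*, 68.4 and 252 FPKM. *Fgl1* LKO mice 5 and 8, with the most *Fgl1* of that genotype (89.1 and 90.0 FPKM), had 7669 and 2890 FPKM of *Saa1*. The part of the acute phase in the relation was not tested. The deletion removes exon 2, and the gene-level values do not separate *Fgl1* RNA with and without that exon.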
